A study of Mus musculus with 9 samples.

Results

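Genes linked to the p53 growth arrest programme, 10 in all, were followed in mouse liver RNA on expression arrays: Trp53inp1, Cdkn1a, Mdm2, Ccng1, Gadd45a, Gadd45b, Gadd45g, Btg2, Ddit4 and Sesn1. They were chosen by name, through the probe sets that the platform annotation gives to exactly 1 gene. All 10 genes had such probe sets, 20 of the 22626 that were not controls, and 19 of the 20 were bright enough to be tested. Each gene is represented by the probe set with the highest mean over the 9 arrays, and its other probe sets are given beside it.

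The arrays held 3 groups of 3 liver samples. NT-Co mice had no tumour and received vehicle. T-Co mice carried TK-4, a human colon cancer, in the wall of the cecum and received vehicle. T-TSU mice carried the same tumour and received TSU68, an oral inhibitor of VEGF, PDGF and FGF receptor kinases, at 400 mg/kg per day for 1 week from day 7 after implantation. The tumour was implanted into males of the BALB/c nu/nu strain, which lacks a thymus and is poor in T cells, at 6 weeks of age. For the NT-Co mice no separate age, sex or strain is stated and no sham operation is described, so implantation surgery and tumour cannot be told apart. The sources used here do not state at what hour, or after what feeding, livers were taken. Samples carry numbers but are not said to be separate animals, and the p-values describe only the spread between them, which may be technical.

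The transcription factor p53 halts the cell cycle and starts DNA repair or cell death after damage. Its targets include Cdkn1a, which encodes the cyclin-dependent kinase inhibitor p21, and Mdm2, which encodes the ubiquitin ligase that degrades p53 and so closes a feedback loop. Several of these genes also answer to signals other than p53: Ddit4 and Gadd45b, for example, are known to respond to glucocorticoids, hypoxia or cytokines, and Btg2 is an immediate early gene. The p53 gene itself is not analysed here.

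Intensities are the authors' scaled array values, differences are on the scale log2(intensity + 7.92), and "called" means an adjusted p under 0.05 by limma over all 15838 probe sets tested. The sizes of dim genes are understated on this scale. The number of arrays limits the precision. Arrays of bulk liver cannot tell fewer cells of a type from less RNA per cell. All 9 measured hepatocyte markers passed the intensity filter, and 4 of 7 lymphocyte markers did not. No marker was listed at 0. Replicate 13 of T-Co lay apart on the second principal component (48.1, against -29.9 to 17.5 for the rest), and it had the highest value of the 9 arrays for 6 of the 10 genes. 

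Summed markers of liver cell types were compared between groups. The T-Co and NT-Co ranges were separate for hepatocyte and for stellate cell and fibroblast markers, and overlapped for the other types. The summed intensity of 10 macrophage markers was 10094 to 15999 in T-Co, against 7392 to 10250.0 without tumour and 4490.2 to 10200.6 with TSU68. Sums of 9 neutrophil markers ran from 941.9 to 2329 in T-Co, from 680.0 to 1038 without tumour and from 604.9 to 988.9 with TSU68, and those of 8 endothelial markers from 2342 to 3754, 1880.5 to 2526 and 1605 to 2290.4. All 3 sums were highest on T-Co replicate 13 and lowest on T-TSU replicate 2. Hepatocyte marker sums were 288909 to 293068 in T-Co, above the 231895 to 253791 of NT-Co and the 231483 to 259679 of T-TSU. Sums of 9 stellate cell and fibroblast markers were lower in T-Co (5569 to 6318) than in NT-Co (6992 to 7685), with 6181 to 7376 in T-TSU, and those of 7 lymphocyte markers overlapped (225.6 to 304.8, 211 to 366 and 169 to 301). Each sum is weighted to its brightest genes, such as Dcn with a mean of 4107 among the stellate markers. Of the 8 stellate markers tested, 2, Des and Lrat, lay higher in T-Co than in NT-Co, and neither was called. The ratio of 3' to 5' signal, which reflects RNA quality, was taken from 2 genes. For beta-actin it averaged 2.72 ± 0.44 on NT-Co arrays, 1.98 ± 0.11 on T-Co arrays and 2.02 ± 0.20 on T-TSU arrays (SD, n = 3), while the same ratio for Gapdh was 0.765 ± 0.031, 0.765 ± 0.039 and 0.767 ± 0.075. What part the markers and these ratios have in the differences below was not tested.

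In T-Co against NT-Co the 10 genes did not move as a block. Trp53inp1 and Btg2 rose, Ccng1 fell on its brightest probe set, and the other 7 were not called. With 1 probe set per gene, 3.59% of all 9225 genes were called higher and 2.78% lower in this comparison. The median log2 difference of the 10 genes was 0.53, against -0.02 for all genes, and 8 of the 10 lay above 0, where 48.4% of all genes did. There was no overlap between the T-Co and NT-Co arrays for 4 of the 10, higher for Trp53inp1, Btg2 and Gadd45b and lower for Ccng1, where 13.0% of all genes lay wholly higher and 13.7% wholly lower. By an unadjusted p under 0.05 there were 5 of the 10, and 21.9% of all genes. Without T-Co replicate 13, again 2 of the 10 were called higher (Trp53inp1 and Btg2) and 1 lower, but the latter was Cdkn1a and not Ccng1. By the F test over the 3 groups, 2 of the 10 genes differed, Trp53inp1 and Btg2, against 5.63% of all genes.

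**Figure D1:**
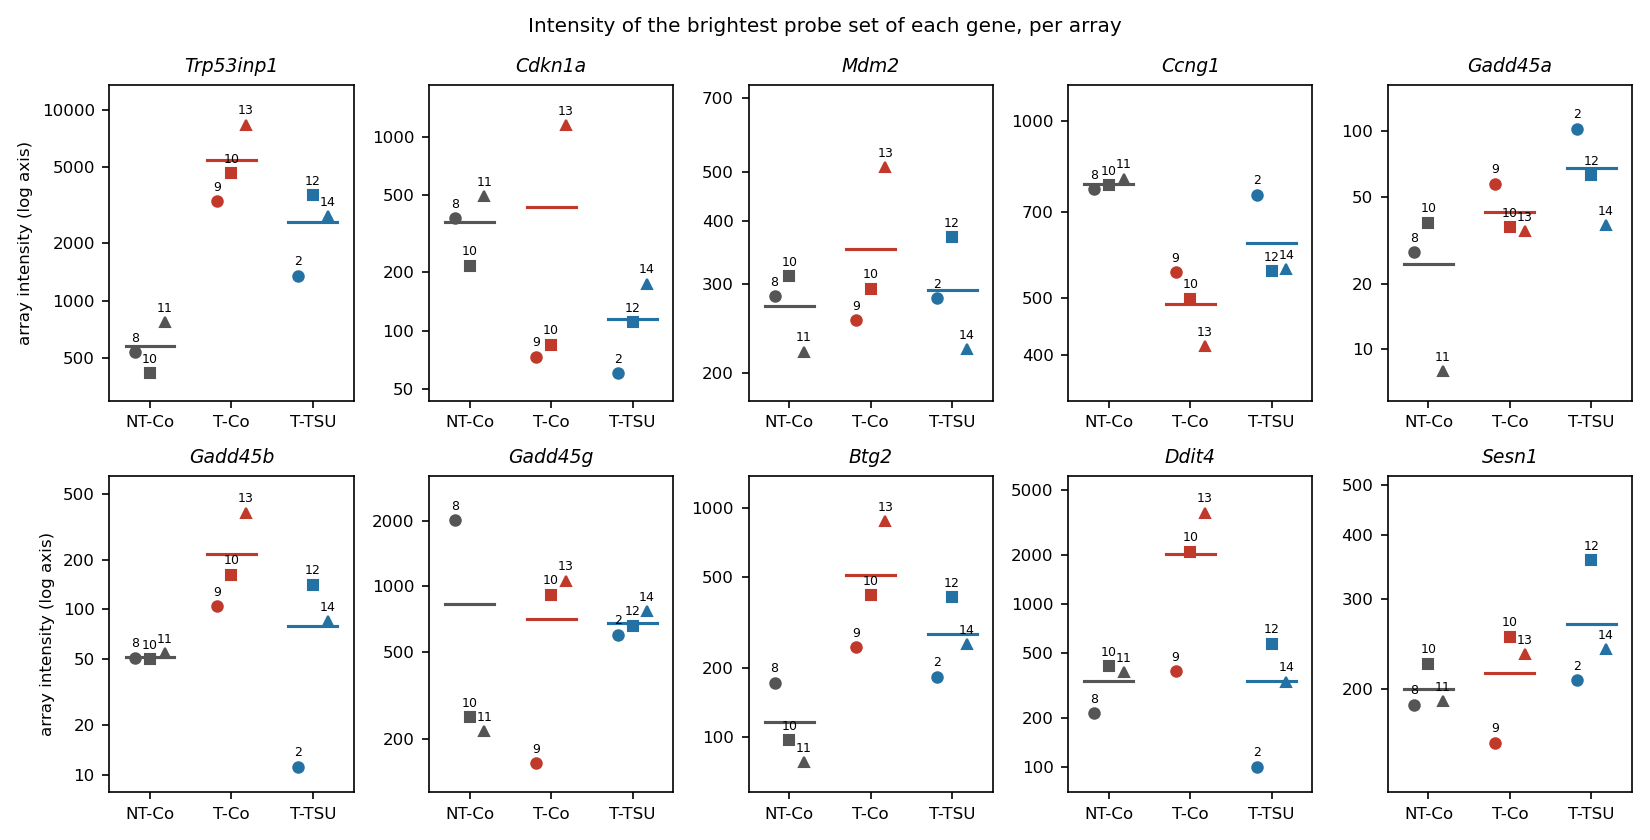
Array intensity (log axis) of the brightest probe set of each of the 10 genes on each of the 9 arrays, with the replicate number beside each point and the group mean (n = 3) as a bar. Trp53inp1 lies above all NT-Co arrays on every tumour-bearing array, while Cdkn1a lies below them on 2 of 3 T-Co arrays and is highest on T-Co replicate 13.

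**Figure D2:**
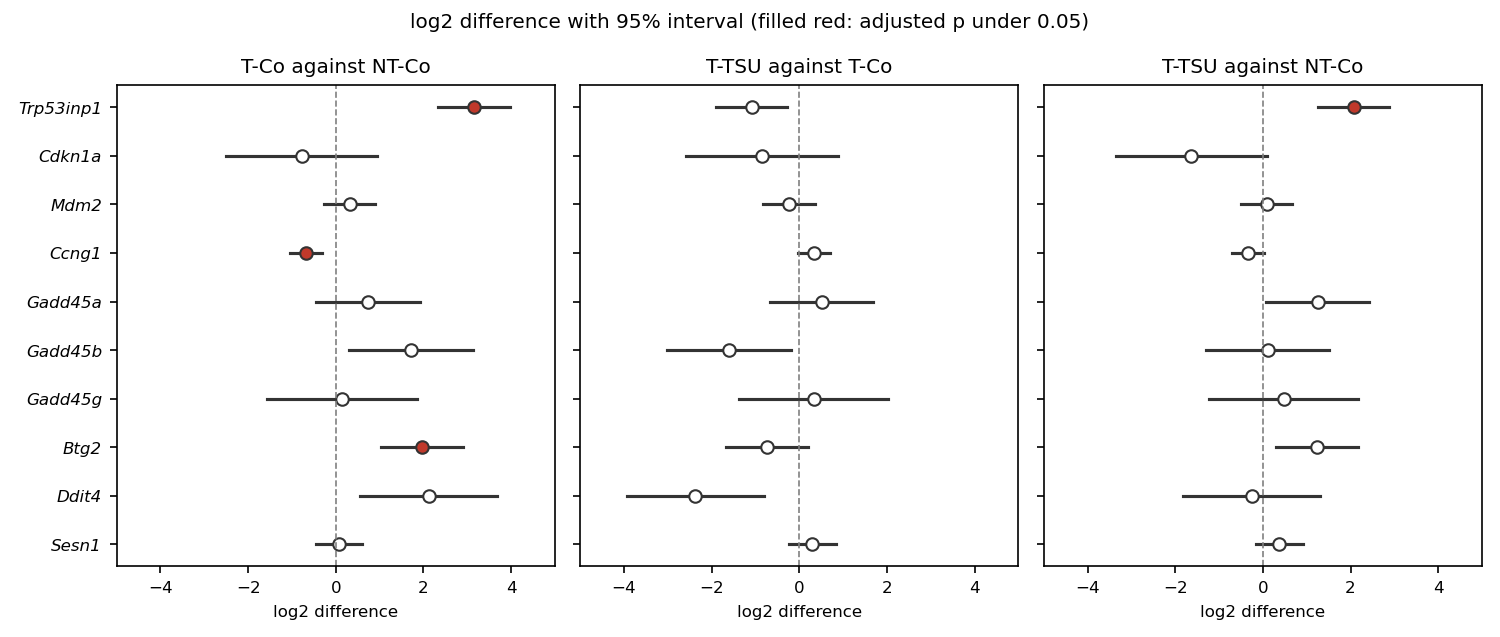
log2 difference of each gene in the 3 comparisons, with the 95% interval from limma. Filled points have an adjusted p under 0.05: Trp53inp1, Btg2 and Ccng1 in T-Co against NT-Co, none in T-TSU against T-Co, and Trp53inp1 in T-TSU against NT-Co. The sizes drawn for Gadd45a against NT-Co rest on NT-Co values below or around the filter.

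Trp53inp1, which encodes a p53-inducible nuclear protein that also acts in autophagy, showed the largest difference of the 10 in T-Co against NT-Co. Its brightest probe set had intensities of 540.3, 418 and 776 in NT-Co replicates 8, 10 and 11, and of 3319, 4662 and 8319 in T-Co replicates 9, 10 and 13. In T-TSU replicates 2, 12 and 14 it had 1350.5, 3577 and 2777. Every tumour-bearing sample, treated or not, thus lay above every sample without tumour, and 2 of the 3 treated samples lay below all T-Co samples. The rise in T-Co over NT-Co was 3.16 ± 0.37 (SE) on the log2 scale, or 8.91-fold (limma adjusted p = 0.000902), and it was called under each of 19 alternatives tried, with differences from 2.80 to 3.46. T-TSU lay 2.07 ± 0.37 above NT-Co, or 4.20-fold (adjusted p = 0.00901). That call was lost without the intensity trend in the variance model (adjusted p = 0.0599) and with the mean of both probe sets (0.0553). Between T-TSU and T-Co the difference was -1.08 ± 0.37 (95% interval -1.90 to -0.27, adjusted p = 0.335).

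The second Trp53inp1 probe set gave the same order at lower intensity. It read 124, 83.8 and 128 across NT-Co, 559, 609 and 1542 across T-Co, and 132, 758 and 308 in T-TSU. Its rise in T-Co was 2.79 ± 0.52 (adjusted p = 0.00831), and T-TSU replicate 2 lay only just above the NT-Co arrays. T-TSU against NT-Co was 1.45 ± 0.52 on this probe set and was not called (adjusted p = 0.162).

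Mdm2 was not called in any comparison. Its brightest probe set read 284, 311 and 220.4 in NT-Co replicates 8, 10 and 11, 254, 294 and 511 in T-Co replicates 9, 10 and 13, and 281, 371 and 223 in T-TSU replicates 2, 12 and 14. The groups overlapped, with only T-Co replicate 13 above the rest. The log2 differences were 0.32 ± 0.27 in T-Co against NT-Co (95% interval -0.27 to 0.90) and -0.23 ± 0.27 in T-TSU against T-Co (-0.82 to 0.36). The other probe set gave 0.18 ± 0.30 and -0.41 ± 0.30.

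Cdkn1a, the best-known arrest target of p53, was the least uniform of the 10 genes. It read 382, 216 and 495 in NT-Co replicates 8, 10 and 11, and 73.7, 84.9 and 1147 in T-Co replicates 9, 10 and 13. In T-TSU replicates 2, 12 and 14 it read 60.5, 110.4 and 175. In 2 of the 3 T-Co samples it was therefore below every NT-Co sample, while the third held the highest value of the series, and all T-TSU samples lay below all NT-Co samples. The differences were -0.78 ± 0.79 in T-Co against NT-Co (95% interval -2.50 to 0.95, adjusted p = 0.627), -0.85 ± 0.79 in T-TSU against T-Co (-2.58 to 0.87, adjusted p = 0.757) and -1.63 ± 0.79 in T-TSU against NT-Co (-3.36 to 0.10, adjusted p = 0.333). The size of the third difference uses no T-Co array, and only the shared estimate of the spread does. The first 2 differences rest on T-Co replicate 13. Without it, Cdkn1a was lower in the tumour-bearing T-Co group by a log2 difference of -2.02 ± 0.41 (adjusted p = 0.0172), T-TSU against NT-Co passed at the same difference (adjusted p = 0.0267), and T-TSU against T-Co changed sign to 0.39 ± 0.41 (adjusted p = 0.877). With only the 2 groups in the fit, T-TSU against NT-Co passed as well (adjusted p = 0.0295).

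The second Cdkn1a probe set had a mean log2 value below the filter, which corresponds to an intensity of 36.2, and was not tested. Its values followed the first: 91.7, 55.1 and 78.9 across NT-Co, 6.20, 8.38 and 158 across T-Co, and 8.18, 32.6 and 6.68 in T-TSU.

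The annotated start regions of the genes were read from RefSeq (GRCm38.p6), as windows of 300 bases that run from 250 before to 50 after the start. Of the 10 genes 9 matched, with 11 windows, and Trp53inp1 had none in the table. The p53 consensus decamer searched for is only part of a full p53 site, and no mismatch to its consensus was allowed. It was found, on either strand, in 5 of the 11 windows, where 8.36% of all 32851 windows hold it. These windows belong to Cdkn1a, Mdm2, Ccng1, Gadd45a and Sesn1, and none of these 5 genes was called higher in any comparison. The window of Btg2, which rose, held no such decamer but a cAMP response element (TGACGTCA), found in 1.79% of all windows. The E-box CACGTG was found in the windows of Gadd45b and Gadd45g (7.15% of all windows), and the glucocorticoid response element GNACANNNTGTNC in none (0.475%). Each of these 4 motifs reads the same on both strands and they were searched with the expression values known. A match is a string of letters and was not measured as a site. Sequence outside the windows was not searched. What part any of these motifs has in the differences was not tested.

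The Cdkn1a window that holds the decamer is shown because Cdkn1a is the reference target of p53. Ccng1 is shown as the called gene with a decamer. Both are written 5′ to 3′ on the strand of the gene, with the decamers in capitals. In the Cdkn1a window (chr17:29090729-29091028, plus strand) the decamers begin at -73 and -51 relative to the annotated start, and in the Ccng1 window (chr11:40755237-40755536, minus strand) at -185.
Cdkn1a: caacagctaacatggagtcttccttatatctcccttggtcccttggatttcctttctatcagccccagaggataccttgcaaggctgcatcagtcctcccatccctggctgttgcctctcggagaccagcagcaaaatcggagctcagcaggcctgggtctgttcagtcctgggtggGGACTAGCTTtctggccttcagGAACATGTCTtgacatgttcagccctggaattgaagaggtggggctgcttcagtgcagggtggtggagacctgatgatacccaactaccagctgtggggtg
Ccng1: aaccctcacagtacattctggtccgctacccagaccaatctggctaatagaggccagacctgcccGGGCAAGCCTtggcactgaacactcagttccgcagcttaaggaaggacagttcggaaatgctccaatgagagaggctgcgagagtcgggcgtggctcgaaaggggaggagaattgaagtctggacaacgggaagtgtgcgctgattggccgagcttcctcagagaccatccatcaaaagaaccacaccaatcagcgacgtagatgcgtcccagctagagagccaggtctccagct

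The decamers of the remaining 3 genes differ in their letters, and 60 bases around each are given for comparison, again with the decamer in capitals. They lie at chr10:117710910-117710969 (minus strand) for Mdm2, chr6:67037413-67037472 (minus strand) for Gadd45a and chr10:41887241-41887300 (plus strand) for Sesn1.
Mdm2: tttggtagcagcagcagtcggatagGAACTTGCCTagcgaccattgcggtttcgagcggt
Gadd45a: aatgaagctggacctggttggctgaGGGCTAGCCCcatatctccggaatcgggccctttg
Sesn1: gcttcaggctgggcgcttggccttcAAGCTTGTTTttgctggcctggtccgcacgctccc

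Ccng1 encodes cyclin G1, a p53 target that recruits a phosphatase to Mdm2. It was the only member called lower. Its brightest probe set read 767, 777 and 798 in NT-Co replicates 8, 10 and 11 and 553, 499 and 414 in T-Co replicates 9, 10 and 13. In T-TSU replicates 2, 12 and 14 it read 749, 555 and 559.7. All T-Co samples were below all NT-Co samples, and the T-TSU samples fell between them without overlap on either side. The fall in T-Co was 0.68 ± 0.17 on the log2 scale (a difference of -0.68, 1.60-fold lower, adjusted p = 0.0325).

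This call was not stable. The other 2 probe sets of Ccng1 gave 0.02 ± 0.18 (95% interval -0.36 to 0.41) and -0.28 ± 0.18 (-0.66 to 0.11), and the mean of the 3 gave -0.31 ± 0.15 (adjusted p = 0.267). The call was also lost without NT-Co replicate 8 (adjusted p = 0.0950), 10 (0.0773) or 11 (0.118), without T-Co replicate 10 (0.0560) or 13 (0.0976), and without the intensity trend (0.0756). T-TSU against T-Co was 0.34 ± 0.17 (adjusted p = 0.512) and T-TSU against NT-Co -0.34 ± 0.17 (0.339).

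**Figure D3:**
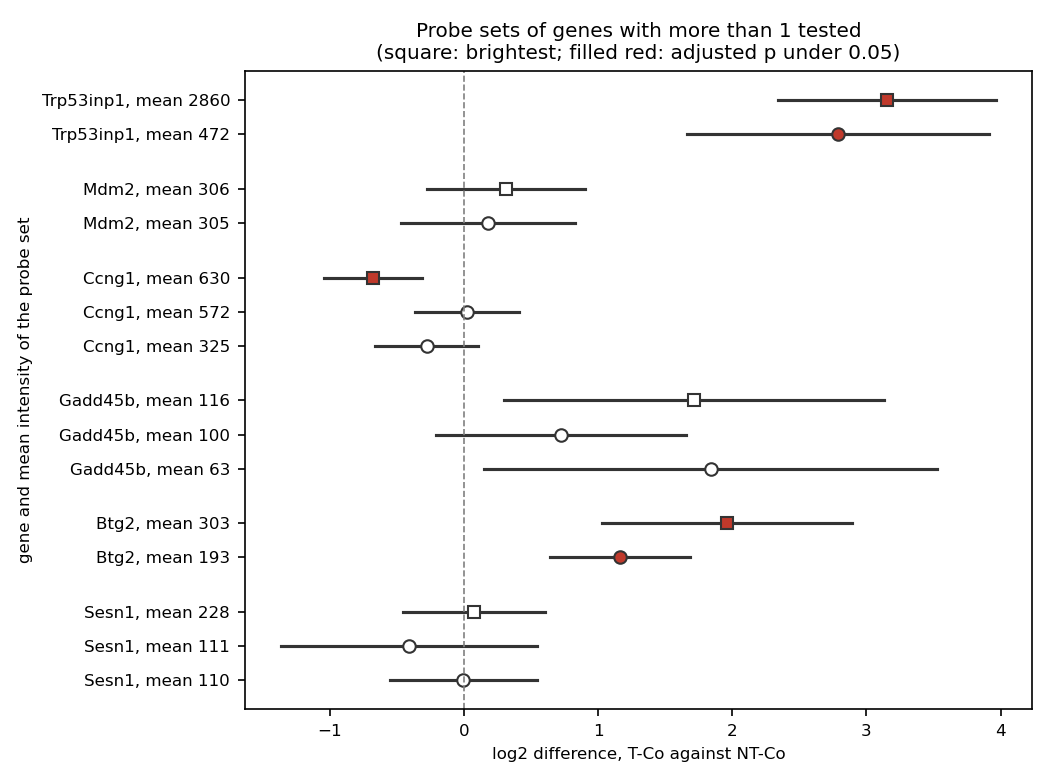
log2 difference of T-Co against NT-Co for each tested probe set of the 6 genes with more than 1, with the 95% interval, labelled by the mean intensity over the 9 arrays. Both probe sets of Trp53inp1 and of Btg2 are called higher, whereas 1 of 3 for Ccng1 is called lower and the other 2 are not called. The size drawn for the dimmest Gadd45b probe set rests on NT-Co values below the filter.

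The 3 GADD45 genes encode small stress sensors that bind the kinase MTK1 and activate p38 and JNK signalling, and of them Gadd45a is the classical p53 target. None was called in any comparison, and their patterns differed. Gadd45b had the largest difference of the 3 in T-Co against NT-Co, with 51.0, 49.9 and 54.3 in NT-Co replicates 8, 10 and 11 and 104, 162 and 385 in T-Co replicates 9, 10 and 13. In T-TSU replicates 2, 12 and 14 it read 11.2, 141 and 85.1. All T-Co samples lay above all NT-Co samples, and T-TSU replicate 2 lay below every other array. The difference was 1.71 ± 0.65 in T-Co against NT-Co (95% interval 0.30 to 3.13, adjusted p = 0.143) and -1.61 ± 0.65 in T-TSU against T-Co (-3.02 to -0.20, adjusted p = 0.408). The first of these passed without T-TSU replicate 2 (adjusted p = 0.0339) and with only the 2 groups in the fit (0.0466), both of which leave its size at 1.71. The second probe set gave 0.73 ± 0.43 in T-Co against NT-Co. The third read 17.6, 29.3 and 13.7 in NT-Co replicates 8, 10 and 11, all below the filter intensity. Its T-Co arrays lay above these, but the size of that difference rests on values below the filter and is not given. The macrophage marker sum was likewise highest on T-Co replicate 13 and lowest on T-TSU replicate 2, and its part was not tested.

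Gadd45a was dim, with a mean intensity of 44.9, close to the filter. It read 27.9, 38.1 and 7.92 across NT-Co, 57.2, 36.1 and 34.6 across T-Co, and 102, 62.7 and 37.1 in T-TSU, with the highest mean in T-TSU. The differences from NT-Co were 0.74 ± 0.54 in T-Co (adjusted p = 0.475) and 1.25 ± 0.54 in T-TSU (adjusted p = 0.267).

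Gadd45g differed more between arrays of 1 group than between groups. It read 2019, 251 and 217 in NT-Co replicates 8, 10 and 11, 155, 915 and 1061 in T-Co replicates 9, 10 and 13, and 601, 661 and 769 in T-TSU replicates 2, 12 and 14. The highest array had no tumour and the lowest had a tumour and vehicle, while the 3 treated samples lay close together. The difference in T-Co against NT-Co was 0.15 ± 0.78 (95% interval -1.56 to 1.85), and its sign depended on which array was left out.

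Btg2 encodes an antiproliferative protein of the BTG/TOB family that recruits the CCR4-NOT deadenylase to messenger RNA. It rose in T-Co on both of its probe sets. The brightest read 173, 96.5 and 77.4 in NT-Co replicates 8, 10 and 11, 247, 416 and 873 in T-Co replicates 9, 10 and 13, and 183, 408 and 253 in T-TSU replicates 2, 12 and 14. All 6 tumour-bearing samples were above all NT-Co samples, T-TSU replicate 2 only just. The rise in T-Co was 1.96 ± 0.43, or 3.89-fold (adjusted p = 0.0185). Without T-Co replicate 13 it was 1.49 ± 0.38 and just passed (adjusted p = 0.0493). It did not pass without NT-Co replicate 10 (adjusted p = 0.0570) or 11 (0.0825), or without the intensity trend (0.0706).

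The second Btg2 probe set read 116, 140.0 and 111 across NT-Co, 216, 294 and 353 across T-Co, and 135, 208 and 164 in T-TSU, a rise of 1.16 ± 0.24 in T-Co (adjusted p = 0.0137). On this probe set all T-TSU samples were below all T-Co samples, by -0.73 ± 0.24 (adjusted p = 0.319). T-TSU against NT-Co was 1.23 ± 0.43 on the brightest (adjusted p = 0.152) and 0.43 ± 0.24 on the second (0.411). The Btg2 start window (chr1:134079106-134079405, minus strand), shown as that of a member that rose, carries the cAMP response element in capitals.
Btg2: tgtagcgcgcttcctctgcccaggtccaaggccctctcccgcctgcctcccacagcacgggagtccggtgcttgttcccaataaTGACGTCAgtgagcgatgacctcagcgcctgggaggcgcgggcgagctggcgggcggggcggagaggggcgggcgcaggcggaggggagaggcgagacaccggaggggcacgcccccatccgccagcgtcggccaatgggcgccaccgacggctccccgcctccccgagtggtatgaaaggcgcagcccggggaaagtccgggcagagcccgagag

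Ddit4 and Sesn1 both encode brakes on mTORC1, the kinase complex that drives growth: the Ddit4 protein (REDD1) acts through the TSC complex and sestrin 1 through leucine sensing at the lysosome. Ddit4 read 214, 414 and 381 in NT-Co replicates 8, 10 and 11 and 387, 2082 and 3629 in T-Co replicates 9, 10 and 13. In T-TSU replicates 2, 12 and 14 it read 100.3, 572 and 334. In T-Co 2 samples were far above the rest while replicate 9 lay among the NT-Co values. The difference was 2.12 ± 0.72 in T-Co against NT-Co (95% interval 0.56 to 3.69, adjusted p = 0.102) and passed without T-Co replicate 9, at 3.06 ± 0.56 (adjusted p = 0.0105). T-TSU against T-Co was -2.38 ± 0.72 (-3.94 to -0.81), the largest drug difference among the 10 genes, and did not pass (adjusted p = 0.277). Between T-TSU and NT-Co the difference was -0.25 ± 0.72.

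Sesn1 stayed within a narrow range and was not called. It read 187, 224 and 189.8 across NT-Co, 158, 253 and 234 across T-Co, and 208, 357 and 239 in T-TSU, with overlap between all groups. The differences were 0.08 ± 0.24 in T-Co against NT-Co (95% interval -0.45 to 0.61) and 0.30 ± 0.24 in T-TSU against T-Co (-0.23 to 0.83). Its other probe sets gave -0.41 ± 0.44 and -0.01 ± 0.25 in T-Co against NT-Co.

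The genes also differed in how much they scattered between samples of the same group. The within-group SD on the log2 scale was 1.35 for Cdkn1a, 1.35 for Gadd45g, 1.23 for Ddit4 and 1.04 for Gadd45b, where the median probe set had 0.29. These 4 lay at or above the 98.2 percentile of all probe sets tested. By contrast Ccng1 (0.19), Sesn1 (0.31) and Mdm2 (0.39) lay at the 22.7, 55.3 and 68.2 percentile, and Btg2 (0.69), Gadd45a (0.63) and Trp53inp1 (0.62) lay between. A difference of the size seen for Gadd45b or Ddit4 was thus not called, while the smaller one of Ccng1 was.

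With the drug, 0 of the 10 genes was called in T-TSU against T-Co by limma, and 3 had an unadjusted p under 0.05, Trp53inp1, Gadd45b and Ddit4, all 3 lower in T-TSU. T-TSU replicate 2 was the lowest treated array for each of these 3. Leaving it out shrank their differences to -0.68 for Trp53inp1, -0.73 for Gadd45b and -1.70 for Ddit4. Among all 9225 genes 0.0434% were called higher and 0.0108% lower, and 11.6% had an unadjusted p under 0.05. The median difference of the 10 genes was -0.48 on the log2 scale, against 0.00 for all genes. T-TSU and T-Co arrays were separate for 1 of the 10, Ccng1, which was higher in T-TSU, where 7.08% of all genes lay wholly higher and 7.59% wholly lower. The margin for Ccng1 was narrow, 555.1 against 553.2, and its other 2 probe sets overlapped. The T-Co arrays enter both this and the tumour comparison, so the signs in the 2 are not independent of each other. Side by side, Ddit4 had 2.12 and -2.38, Gadd45b 1.71 and -1.61, Trp53inp1 3.16 and -1.08, and Btg2 1.96 and -0.73. Mdm2 had 0.32 and -0.23, and Ccng1 -0.68 and 0.34. Cdkn1a had -0.78 and -0.85, Gadd45a 0.74 and 0.51, Gadd45g 0.15 and 0.33, and Sesn1 0.08 and 0.30. The 0.74 of Gadd45a rests on NT-Co values below or around the filter.

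Against samples without tumour, T-TSU had 1 called member, Trp53inp1, where 2.07% of all genes were called higher and 1.57% lower. T-TSU and NT-Co arrays were separate for 4 members, higher for Trp53inp1 and Btg2 (11.5% of all genes) and lower for Cdkn1a and Ccng1 (12.6%). An unadjusted p under 0.05 was reached by 3 of the 10, Trp53inp1, Btg2 and Gadd45a, and by 16.5% of all genes. Gadd45a averaged 24.6 in NT-Co, which is below the filter intensity. The median difference of the 10 genes was 0.24, against -0.01 for all genes.

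Other genes of the pathway were counted over written lists in the same fit. For comparison, 3.59% of all genes were called higher and 2.78% lower in T-Co against NT-Co, and 2.07% and 1.57% in T-TSU against NT-Co. An unadjusted p under 0.05 was reached by 21.9% of all genes in T-Co against NT-Co. It was reached by 11.6% in T-TSU against T-Co and by 16.5% in T-TSU against NT-Co. None of the 7 lists, some of which share genes, had a called gene in T-TSU against T-Co, where an unadjusted p under 0.05 was reached by 2 of 14 regulators of p53, 4 of 21 targets of arrest, repair and metabolism, 1 of 19 proliferation genes and 0 of 2 further kinase inhibitors. Among 14 measured regulators of p53 in T-Co against NT-Co, 1 rose and 1 fell, with a median of 0.03 against -0.02 for all genes. Sirt1, a deacetylase that acts on p53, rose by 0.82 ± 0.20 (adjusted p = 0.0328), and Rchy1, a ubiquitin ligase for p53, fell by 0.64 ± 0.13 (adjusted p = 0.0156). Rchy1 was not called without any 1 of NT-Co replicates 8, 10 and 11 (adjusted p up to 0.0683). Sirt1 was lost when T-Co replicate 13, NT-Co replicate 8 or NT-Co replicate 11 was left out, with no filter, without the intensity trend and with only 2 groups in the fit (adjusted p up to 0.138).

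Of 21 measured p53 targets of arrest, repair and metabolism outside the 10, 4 rose and 0 fell in T-Co against NT-Co. Among all genes 3.59% were called higher and 2.78% lower. The median of the 21 was 0.24, against -0.02 for all genes. Plk3, a stress-activated kinase, rose from 94.8 ± 6.78 to 659 ± 177 (SD, n = 3), by 2.67 ± 0.28 (adjusted p = 0.000477), and was called under each of 19 alternatives. Tob1, a relative of Btg2, rose by 1.03 ± 0.21 (adjusted p = 0.0122), Sat1, of polyamine catabolism, by 1.02 ± 0.24 (0.0243), and the G protein regulator Rgs16 by 3.32 ± 0.85 (0.0376). These 3 calls were less stable, and all were lost without the intensity trend. Tob1 was also lost without NT-Co replicate 11, with an adjusted p of up to 0.0607 over these alternatives. Sat1 was lost without NT-Co replicate 8, 10 or 11 (adjusted p up to 0.102), and Rgs16 without T-TSU replicate 14, T-Co replicate 10 or 13, or any 1 NT-Co array, and with a robust trend (up to 0.150). Rgs16 was uneven within groups. It read 69.0, 55.3 and 17.1 in NT-Co replicates 8, 10 and 11, the last below the filter intensity. In T-Co replicates 9, 10 and 13 it read 144, 1983 and 391.

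In T-TSU against NT-Co, Plk3 (2.44 ± 0.28, adjusted p = 0.000727), Tob1 (0.97 ± 0.21, 0.0213) and Rgs16 (3.43 ± 0.85, 0.0442) were called as well, against the same NT-Co arrays. Plk3 kept its call there under each of 19 alternatives. Tob1 was lost without the intensity trend and without NT-Co replicate 10 or 11 or T-TSU replicate 12 or 14 (adjusted p up to 0.0973), and Rgs16 without any 1 array of either group, with no filter, with a pseudocount of 32, and without the trend or with a robust one (up to 0.185). Zmat3, Phlda3, Ddb2 and Aen, which are frequent p53 targets, were not called. The log2 differences between T-Co and NT-Co were -0.42 ± 0.27, 0.25 ± 0.33, -0.09 ± 0.27 and 0.13 ± 0.16. Of 10 measured cell death targets, 0 were called by limma in any comparison, and at an unadjusted p under 0.05 there were 0 in T-Co against NT-Co, 1 in T-TSU against T-Co and 0 in T-TSU against NT-Co. Among them Bbc3, which encodes PUMA, had 0.53 ± 0.37 and Fas had -1.05 ± 0.60 in T-Co against NT-Co.

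**Figure D4:**
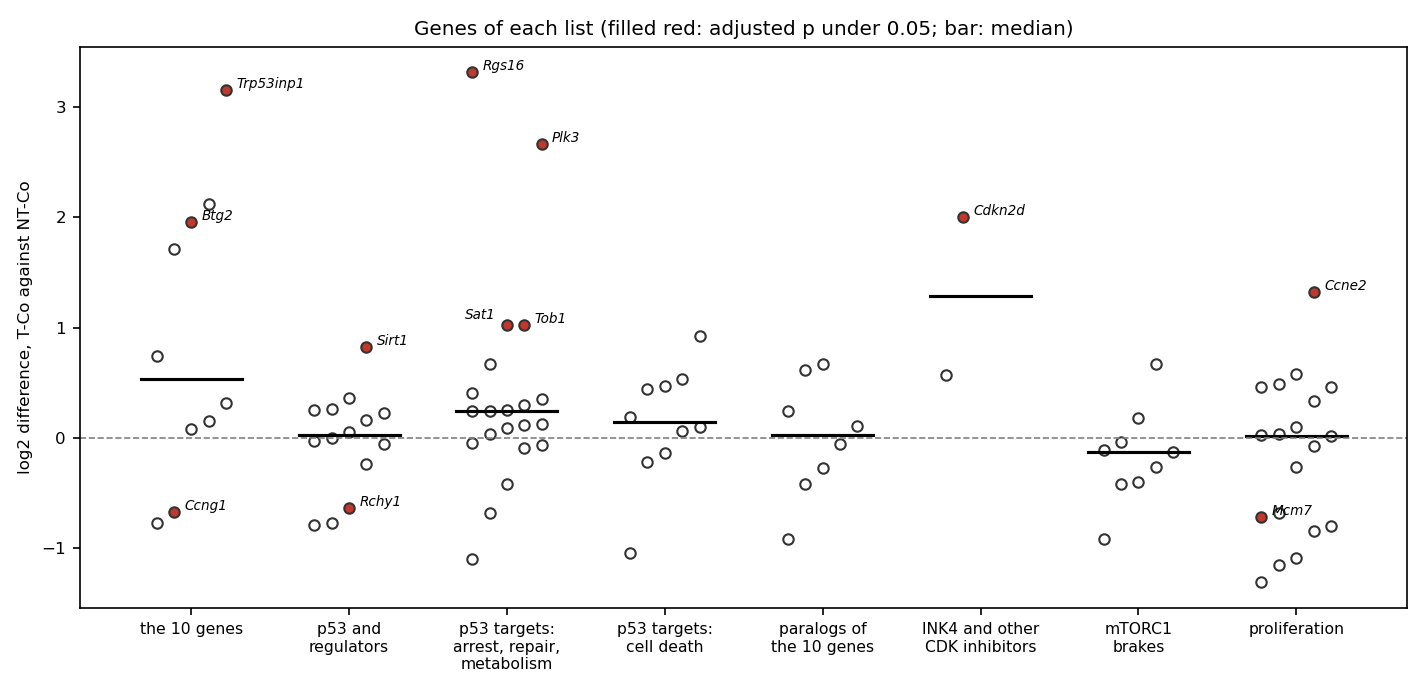
log2 difference of T-Co against NT-Co for each measured gene (brightest probe set) of the 10 genes and of 7 further lists, with called genes filled and named and the list median as a bar. The list of p53 targets of arrest, repair and metabolism holds 4 called rises among 21 genes, where 3.59% of all genes were called higher. The cell death targets and the paralogs of the 10 genes hold no called gene. The sizes drawn for Cdkn2d, Ccne2 and Gadd45a rest on NT-Co values below or around the filter, and those for Mcm6 and Ddit4l on such T-Co values.

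The nearest relatives of the 10 genes were not called in any comparison: of 8 measured, 0 passed by limma, and an unadjusted p under 0.05 was found for 2 in the tumour comparison (T-Co against NT-Co), 1 in the drug comparison (T-TSU against T-Co) and 1 in T-TSU against NT-Co. Between T-Co and NT-Co they differed by -0.27 ± 0.14 for Trp53inp2, 0.61 ± 0.26 for Cdkn1b, -0.06 ± 0.22 for Mdm4, 0.11 ± 0.32 for Ccng2 and 0.24 ± 0.25 for Btg1. The values were -0.92 ± 0.50 for Ddit4l, 0.66 ± 0.30 for Sesn2 and -0.42 ± 0.22 for Sesn3. The T-Co mean of Ddit4l was 28.7, below the filter intensity, and its size rests on such values. The 3.16 of Trp53inp1 thus stood beside -0.27 for its paralog, although the difference between the 2 genes was not tested. Sesn2, Sesn3 and Ddit4l also belong to the list of mTORC1 brakes, of which 0 of 9 measured were called by limma in any comparison (2, 3 and 1 at an unadjusted p under 0.05, in the same order). Of the other kinase inhibitors only Cdkn2c and Cdkn2d were tested. Cdkn2d, encoding p19-INK4d, read 11.8, 12.2 and 56.6 in NT-Co replicates 8, 10 and 11, a mean of 26.9 that lies below the filter intensity of 36.2. In T-Co it averaged 115 ± 41.1 and in T-TSU 117 ± 46.0, and the probe set passed the filter through these groups. Both differences from NT-Co were called (adjusted p = 0.0336 and 0.0441), but their sizes rest on NT-Co values below the filter and are not given. The first was lost under 7 of 18 alternatives: when T-Co replicate 10 or 13, or NT-Co replicate 8 or 10, was left out, with no filter, without the intensity trend and with only 2 groups in the fit (adjusted p up to 0.115). The second was lost under 11 of 18 (up to 0.146).

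Of 28 proliferation genes 19 were measured above the filter, and Mki67, Ccna2, Ccnb2, Plk1, Aurkb, Birc5, Bub1 and Tyms lay below it. In T-Co against NT-Co 1 rose and 1 fell, with a median of 0.01 against -0.02 for all genes. In T-TSU against NT-Co 7 of the 19 had an unadjusted p under 0.05, where 16.5% of all genes did. In T-Co against NT-Co 8 of the 19 did, where 21.9% of all genes did. Of those 8, 6 were the measured subunits of the MCM replication helicase, which are set out here after their values were seen. All lay lower in T-Co, by -0.81 ± 0.34 for Mcm2, -1.16 ± 0.37 for Mcm3, -0.84 ± 0.30 for Mcm4, -1.09 ± 0.37 for Mcm5, -1.31 ± 0.54 for Mcm6 and -0.72 ± 0.20 for Mcm7. Only Mcm7 passed the adjustment, and the other subunits had an adjusted p from 0.0877 to 0.190. The remaining 2 of the 8, Ccne2 and the kinase gene Cdk2 (0.57 ± 0.19), lay higher. In T-TSU against NT-Co, Mcm3 (-0.93 ± 0.37), Mcm4 (-1.04 ± 0.30) and Mcm5 (-1.13 ± 0.37) were again lower without passing, while Mcm2 had 0.09 ± 0.34 and Mcm6 -0.23 ± 0.54. The cyclin Ccne2 was called higher (adjusted p = 0.0371), with a dim 37.5 ± 13.2 in NT-Co and 102 ± 11.2 in T-Co. Its NT-Co replicates 8, 10 and 11 read 40.5, 22.9 and 48.9. The size of its difference rests on these values, which lie around the filter intensity, and is not given. Mcm7 fell by 0.72 ± 0.20 (adjusted p = 0.0481). Ccne2 was called only without T-TSU replicate 2 or 12 among the 9 fits that left out an array, and Mcm7 only without T-Co replicate 13. In all, Ccne2 was lost under 9 of 18 alternatives and Mcm7 under 12 of 19. Their adjusted p reached 0.105 (Ccne2, without T-Co replicate 13) and 0.196 (Mcm7, without NT-Co replicate 11). Mcm7 was also lower in T-TSU than in NT-Co, by -1.03 ± 0.20 (adjusted p = 0.0119), a call lost without NT-Co replicate 11 or T-TSU replicate 12 or 14 and without the intensity trend (adjusted p up to 0.0592).

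The genes whose profile over the 9 arrays was most like that of a called member were found by the mean absolute difference between centred log2 profiles. For Trp53inp1 these were Fkbp5, an FK506-binding cochaperone, with a mean difference of 0.27 per array, then Plk3 and the transcription factor gene Cebpb, both with 0.39, where the median probe set differed by 1.27. For Btg2 they were Oscar, Timp3 and the phosphatase gene Dusp1, with 0.30, 0.31 and 0.33 against a median of 0.83. For Ccng1 they were Rfc5, Mrpl44 and Mynn, with 0.057, 0.061 and 0.070 against a median of 0.376. These distances include the differences between groups and describe 9 arrays without a test.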

How the data were processed

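RNA of 9 liver samples was labelled with biotin from 5 µg of total RNA and hybridised to 3' expression arrays, per the labels' protocols. The deposited values are linear array intensities, scaled before deposit to the same trimmed mean (500.3, leaving out 2% at either end) on each array. The summarisation software is not stated here. Of 22690 probe sets 64 were controls. The annotation gave the others 1 gene (20380), several (691) or none (1555), and 20351 matched RefSeq by gene ID.

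The tests used log2(intensity + 7.92), where 7.92 is the 10th percentile of all values. Probe sets with a mean log2 value under the 30th percentile (an intensity of 36.2) were dropped, which left 15838 and among them 9225 named genes. In R 4.3.3, limma 3.58.1 fitted the 3 group means (6 residual degrees of freedom, eBayes with trend). All p-values are two-sided and were adjusted by the Benjamini-Hochberg method across the 15838 probe sets. The procedure was tested on data simulated with normal noise of each probe set's own spread. It called 39.2% to 44.4% of 2-fold changes and 80.6% to 82.4% of 4-fold changes, depending on the comparison. A gene that was not called may therefore still differ. Differences carry their SE and 95% intervals, and SDs have n = 3.

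The 10 genes, the further gene lists and the alternatives were chosen with earlier results of these data known. All members and paralogs are named, with the 3 most similar genes of each called member and up to 4 called genes of each list. Zmat3, Phlda3, Ddb2, Aen, Bbc3 and Fas were named after their values were seen. Alternatives changed the filter, the pseudocount, the normalization, the variance trend, the arrays in the fit and the handling of probe sets, and left out each array. For pathway genes outside the 10 they were added after the data were seen.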

Additional observations from a re-analysis of the deposited data

How the results depend on the processing

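No paired analysis was possible because the groups share at most 1 replicate number. Of 564 alternatives over 30 results for single members, 530 kept direction and side of the threshold, 12 lost a call, 6 gained a call and 16 changed sign. Without the intensity trend, 1 member rose and 0 fell in T-Co against NT-Co, 0 rose in T-TSU against NT-Co, and 1 differed by the F test. With the mean of all probe sets of a gene, 0 fell in T-Co against NT-Co and 0 rose in T-TSU against NT-Co. With no filter or a robust trend, 1 differed by the F test. With only the 2 groups compared, 1 fell in T-TSU against NT-Co. When single arrays were left out, 1 to 3 members rose and 0 to 1 fell in T-Co against NT-Co, 0 to 1 fell in T-TSU against NT-Co, and 1 to 3 differed by the F test.

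Sign changes touched only differences that were not called. With the mean of all probe sets, Sesn1 was at -0.11 in T-Co against NT-Co and Mdm2 at -0.0751 in T-TSU against NT-Co. Leaving out single arrays gave, for T-Co against NT-Co, -0.42 to 1.17 for Gadd45g and -0.0516 to 0.28 for Sesn1. For T-TSU against T-Co it gave -1.52 to 0.39 for Cdkn1a, -0.43 to 0.0628 for Mdm2 and -0.54 to 0.81 for Gadd45g. For T-TSU against NT-Co it gave -0.10 to 0.26 for Mdm2, -0.50 to 0.98 for Gadd45b, -0.0896 to 1.497 for Gadd45g and -0.78 to 0.43 for Ddit4. The cause was not tested.

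Over all probe sets, the 1036 called in T-Co against NT-Co became 473 without the trend, 660 with gene means over fewer features, and 470 or 445 when NT-Co replicate 8 or 11 was left out. The 609 in T-TSU against NT-Co became 265 without the trend, 398 with gene means and 287 to 793 when single arrays were left out. The 8 in T-TSU against T-Co ranged from 0 to 58. A filter at the 50th percentile left Gadd45a and Gadd45b untested, and the F test was not run with 2 groups. Dim probe sets such as Gadd45a have signal too close to background for small differences to show.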
